A study of Mus musculus with 8 samples.

Results

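The cells described here were picked out of single-cell RNA-seq libraries of chimaeric mouse embryos because they carried transcripts of genes used by white blood cells. A cell was taken as a member when at least 3 of the 5 genes Spi1, Fcer1g, Tyrobp, Laptm5 and Coro1a had at least 1 unique molecular identifier (UMI, a counted transcript molecule) in it. Of 49838 kept cells in 8 libraries, 109 met the rule. They had been put forward as myeloid-like immune cells, but nearly all of those at E8.5 held genes of blood progenitors and few held several genes of mature myeloid cells, so they are called Spi1/Fcer1g cells or members below. This name is only a label, since a member could lack UMIs of either gene. The 5 genes chose the members, so their levels in the members are a description and were not tested.

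The chimaeras were made by injecting Tet-TKO ESCs, which lack all TET dioxygenases and carry an H2B-tdTomato reporter, into C57BL/6J host blastocysts that were carried by CD1 recipients. Pools of embryos were then dissociated, and flow sorting gave a tdTomato+ fraction, labelled TET TKO with a C57BL/6J-129Sv background, and a tdTomato- fraction, labelled Wildtype with a C57BL/6J background. Of the 8 libraries, 6 came from E8.5 embryos, 4 of them tdTomato+ and 2 tdTomato-, and E7.5 embryos gave 1 library of either fraction. The libraries are the replicates, and since embryos were pooled and the labels do not say which pool gave which library, p-values measure only the spread between libraries. Genotype, strain background and sorted fraction go together in every library and cannot be told apart, and the number of ESC clones is not given in the sources used here. No gate for blood cells is described for these libraries.

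Spi1 encodes PU.1, the transcription factor that the myeloid lineages need. Fcer1g and Tyrobp encode adaptors with an immunoreceptor tyrosine-based activation motif (ITAM), through which Fc receptors and related surface receptors signal. Laptm5 encodes a lysosomal membrane protein of haematopoietic cells, and Coro1a an actin-binding protein of leukocytes. In the yolk sac, blood arises in waves: primitive erythrocytes, megakaryocytes and macrophages come early, and erythro-myeloid progenitors then bud from haemogenic endothelium while carrying Kit, Cd34, Runx1, Myb, Itga2b and Fcgr3. Endothelial genes can therefore still be present in young blood cells, and mature macrophages are marked by Csf1r, Adgre1 and the complement genes C1qa, C1qb and C1qc.

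In the files' mm10 build the 5 genes lie apart from each other, except that a pair of them shares a chromosome. By the GENCODE M21 annotation, Spi1 (ENSMUSG00000002111) is on the plus strand of chromosome 2, from 91082390 to 91115756. Fcer1g (ENSMUSG00000058715) is on the minus strand of chromosome 1, from 171229572 to 171234365. Tyrobp (ENSMUSG00000030579) is on the plus strand of chromosome 7, from 30413760 to 30417585, and Coro1a (ENSMUSG00000030707) on the minus strand of the same chromosome, from 126699773 to 126707787. Laptm5 (ENSMUSG00000028581) is on the plus strand of chromosome 4, from 130913125 to 130936141.

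The libraries held between 65601218 and 136982886 UMIs, and between 1008 and 9545 kept cells. The median depth of the cells that are not members was 12178 to 18774 UMIs in all libraries except the E7.5 Tet-TKO library (20744) and the deep E8.5 Tet-TKO libraries 3 (40404) and 4 (68931). The tdTomato transcript had 93.2 to 145 CPM (UMIs of a gene per 1000000 UMIs) in cells other than members of Tet-TKO libraries at E8.5 and 0.498 and 0.946 CPM in the E8.5 WT host libraries. The deleted genes still gave counts, with 9.93 to 20.9 CPM of Tet1, 5.55 to 10.5 CPM of Tet2 and 22.5 to 37.5 CPM of Tet3 in Tet-TKO libraries of E8.5. WT host libraries had 20.5 and 22.6, 4.58 and 4.64, and 23.0 and 23.2 CPM of these genes, so the counts do not check the labels. Pairs of libraries shared between 0 and 29 cell barcodes, and no barcode of a member was shared with a member of another library.

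Spi1/Fcer1g cells were found almost entirely among WT host cells. WT host library 1 held 34 members among 8257 kept cells, a share of 0.412% (95% exact binomial interval 0.285 to 0.575%). WT host library 2 held 63 among 9038, or 0.697% (0.536 to 0.891%). The WT host libraries thus differed from each other, while both lay above every Tet-TKO library. Tet-TKO libraries 1, 2 and 3 held 2 of 7039, 3 of 9545 and 1 of 2299 cells, shares of 0.0284% (0.00344 to 0.103%), 0.0314% (0.00648 to 0.0918%) and 0.0435% (0.00110 to 0.242%). Tet-TKO library 4 held 0 of 1008, which allows a share of up to 0.298% when 3 cells are taken as the limit of a count of 0. These intervals and limits cover counting error only. The limit for library 4 lies below both WT host shares, but above the lower end of the interval of WT host library 1 (0.285%).

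**Figure D1:**
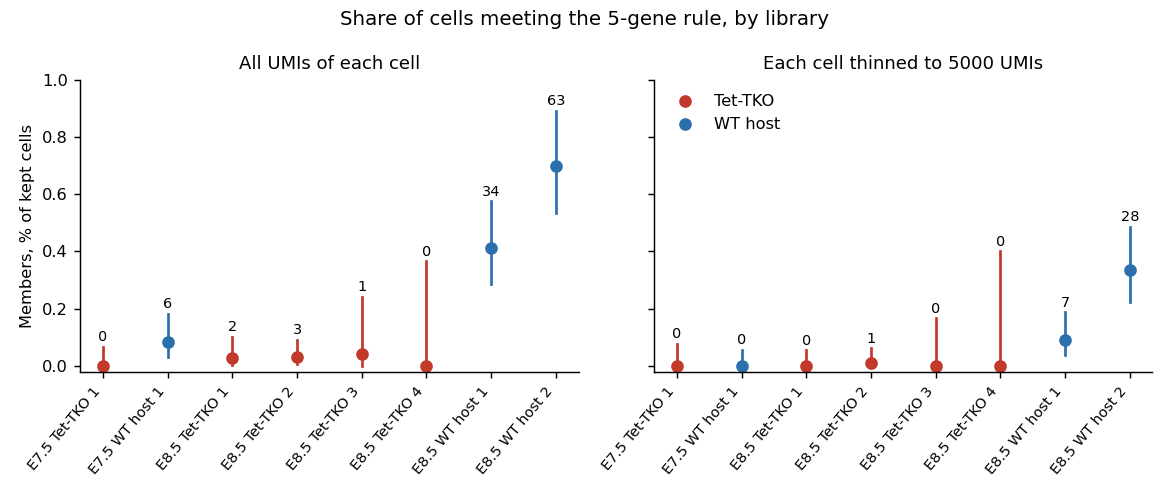
Share of kept cells that met the 5-gene rule in each library, with 95% exact binomial intervals as bars and the number of members above each bar. The left panel uses all UMIs of a cell and the right panel each cell thinned to 5000 UMIs. In both panels the 2 E8.5 WT host libraries lie above the 4 E8.5 Tet-TKO libraries.

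The mean share was 0.0258% ± 0.0184 (SD, n = 4 libraries) for Tet-TKO and 0.554% ± 0.202 (SD, n = 2) for WT host cells, a difference of -0.529 percentage points that was larger than the spread between libraries. An exact two-sided permutation test gave p = 0.133, the smallest that 4 libraries against 2 can give. Deeper cells meet such a rule more easily, and 3 of the 4 Tet-TKO libraries were deeper per cell than both WT host libraries. With each cell thinned to 5000 UMIs, which left out between 76 and 724 cells of an E8.5 library, the rule found 0, 1, 0 and 0 members in the Tet-TKO libraries, against 7 and 28 for WT host. The limits of the counts of 0 in thinned libraries 3 and 4, 0.135 and 0.326%, lay above the thinned share of WT host library 1 (0.0909%), so these zeros do not separate the genotypes. Among cells with UMIs of exactly 2 of the 5 genes, just outside the rule, the Tet-TKO libraries held 5, 3, 8 and 1, against 48 and 53 for WT host. These had a mean of 2.2 to 4 UMIs of the 5 genes, and the cells just inside, with 3 genes, had a mean of 4 to 6.55 in the libraries that held any.

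The number of members was also compared with that of other kinds of cells, to see whether endothelium and blood had moved with it. Each cell was placed in every class of which it had UMIs of at least 3 list genes, so the classes overlap, except that members were left out of the class of endothelium-like cells described next. edgeR's quasi-likelihood test was then run over the 12 classes with at least 10 cells, with all kept cells as library size, a test chosen after seeing the data. Members fell in Tet-TKO libraries. The log2 fold change was -4.13, with a standard error of 0.917 and an adjusted p of 0.00406 (edgeR, Benjamini-Hochberg adjustment), and the share was lower in 4 of 4 libraries. Of all classes, 33.3% were called as fewer in Tet-TKO libraries, and 0 as more numerous. The 4 of 12 called as fewer were members and cells with blood progenitor, with erythroid and with extraembryonic endoderm genes. The extraembryonic endoderm class held 18, 5, 16 and 6 cells in Tet-TKO libraries, against 792 and 287 for WT host. The paper found no injected cells in trophoblast, whether the ESCs were WT or Tet-TKO. The part of ESC injection itself in the fall of the extraembryonic endoderm class was not tested. With Tet-TKO libraries 1 and 2, and 3 and 4, summed as like libraries, the log2 fold change was -4.14 and the call was lost (adjusted p = 0.0585).

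Endothelium-like cells, which were cells other than members with UMIs of at least 3 of Cdh5, Pecam1, Tie1, Emcn and Esam, did not pass the test. The log2 fold change of their number was -0.24, with a standard error of 0.466 (edgeR, adjusted p = 0.667). This is at full depth, at which deeper cells enter a class more easily. In cells thinned to 5000 UMIs, Tet-TKO libraries 1 to 4 held 59 of 6758, 111 of 9029, 18 of 2223 and 4 of 919. WT host libraries then held 136 of 7705 and 128 of 8314, higher shares than in every Tet-TKO library. The wider class of cells with at least 3 of 8 endothelium genes, in which members were kept, had a value of 0.06 on the log2 scale, with a standard error of 0.326, and did not pass either (edgeR, adjusted p = 0.851). In thinned cells this class overlapped between genotypes, with 395 of 9029 in Tet-TKO library 2 and 356 of 8314 in WT host library 2. The numbers that follow are at full depth. There were 34 members beside 321 endothelium-like cells in WT host library 1 and 63 beside 261 in library 2. In the Tet-TKO libraries there were 2 beside 256, 3 beside 294, 1 beside 67 and 0 beside 17. The log2 ratio of members to endothelium-like cells, with 0.5 added to both numbers, was lower by 3.29 on average in Tet-TKO libraries. All 4 of its Tet-TKO values, from -6.68 to -5.13, lay below the WT host values of -3.22 and -2.04, and the exact two-sided permutation p of 0.133 is again the smallest possible. The number of cells with blood progenitor genes changed by -1.44 on the log2 scale, with a standard error of 0.294 (edgeR, adjusted p = 0.00378). Cells with megakaryocyte genes had a value of -1.77 with a standard error of 1.03 (edgeR, adjusted p = 0.178), which did not pass at full depth and did in cells thinned to 5000 UMIs (-4.65, adjusted p = 0.00548). The erythroid class cannot be read as a count of erythroid cells, because 87.2% of the neural-like cells of the WT host libraries also had UMIs of at least 3 erythroid genes.

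**Figure D2:**
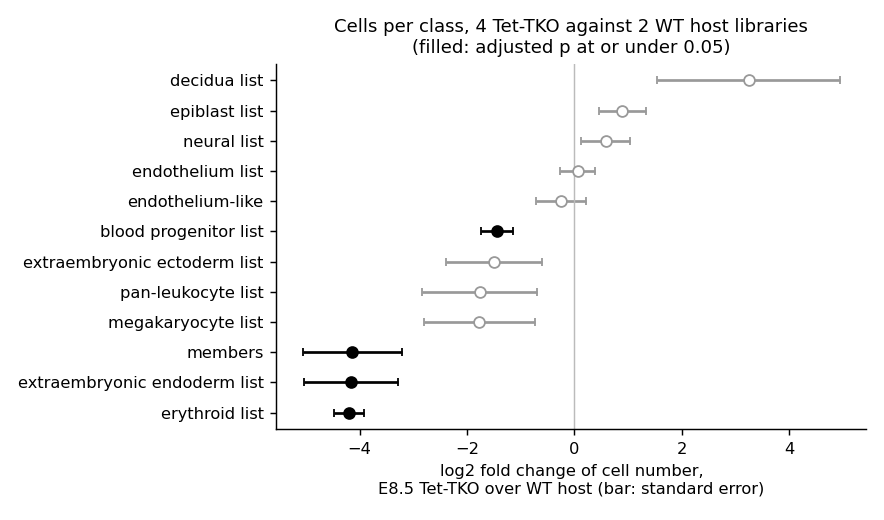
Change in the number of E8.5 cells per class, 4 Tet-TKO against 2 WT host libraries, as the edgeR log2 fold change (points) with its standard error (bars). Filled points have an adjusted p at or under 0.05. All UMIs of a cell were used, without thinning. Members, at -4.13, lie beside the erythroid and extraembryonic endoderm classes, and endothelium-like cells lie near 0, at -0.24.

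The 5 genes were also followed over all kept cells, members or not. Spi1 had 0.0731, 0.0895, 0.0630 and 0.0154 CPM in the Tet-TKO libraries, in order, and 1.61 and 2.27 CPM for WT host. Laptm5 had 0.278, 0.252, 0.325 and 0.262 CPM against 1.77 and 2.44 CPM. For both genes the Tet-TKO values lay together, below both WT host values. Fcer1g ranged from 0.124 to 0.212 CPM in Tet-TKO libraries and had 1.24 and 4.22 CPM in the WT host libraries. Tyrobp ranged from 0 UMIs in library 4, which allows up to 0.0462 CPM, to 0.0630 CPM in library 3, against 0.297 and 0.686 CPM. Coro1a was closest between the genotypes, with 1.52 to 1.97 CPM against 3.19 and 3.94 CPM. All 5 genes were thus lower in 4 of 4 Tet-TKO libraries, without overlap, as were 17% of the 25524 genes with at least 10 UMIs. The ratio of the WT host to the Tet-TKO mean ran from 2.14 for Coro1a to 32.2 for Spi1. Members held 87 of 211 and 204 of 288 Spi1 UMIs of WT host libraries 1 and 2. For Fcer1g it was 112 of 163 and 373 of 535, and for Tyrobp 23 of 39 and 79 of 87. For Laptm5 it was 55 of 232 and 129 of 309, and for Coro1a 79 of 419 and 198 of 500. The sums thus partly repeat the numbers of members, which these genes chose, and are a description only. In such sums over cells, fewer cells with a gene and less RNA per cell cannot be told apart.

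**Figure D3:**
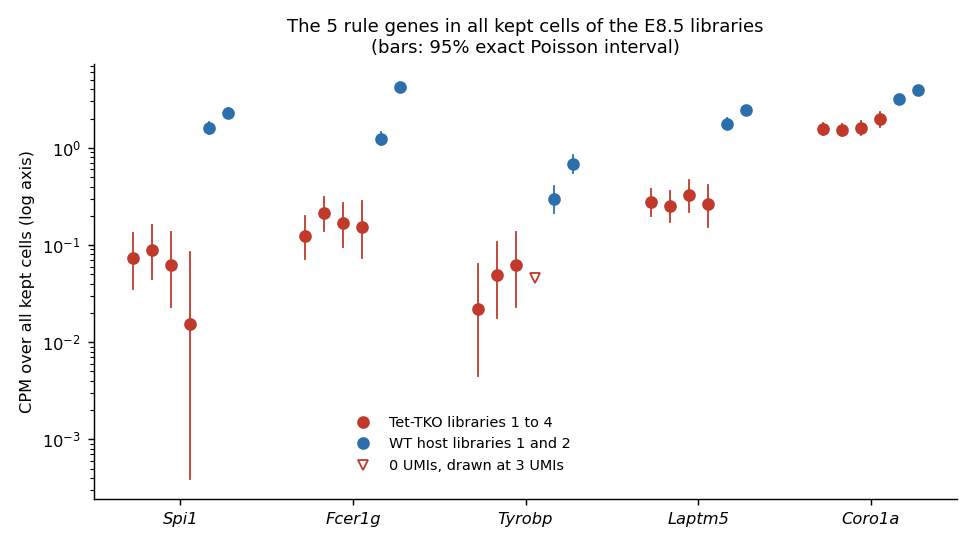
Level of each rule gene over all kept cells of the E8.5 libraries, in CPM on a log axis, with 95% exact Poisson intervals as bars. The triangle marks 0 UMIs of Tyrobp in Tet-TKO library 4, drawn at the 3-UMI limit. The WT host libraries lie above the Tet-TKO libraries for each gene, with the narrowest gap for Coro1a.

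Within the members of WT host libraries 1 and 2, Spi1 had 120 and 189 CPM, Fcer1g 154 and 345, Tyrobp 31.6 and 73.0, Laptm5 75.6 and 119, and Coro1a 109 and 183 CPM. All 5 were higher in the members of library 2. Of the 97 WT host members, 25 had all 5 genes, 34 had 4 and 38 had 3. Laptm5 was found in 89 members, Spi1 in 86, Coro1a in 82, Fcer1g in 81 and Tyrobp in 37. The members had a median of 17322 UMIs against 14335 UMIs in the other cells of these libraries. By library it was 20285 and 16642 UMIs against 15214 and 13652, so members were deeper in both. Their median mitochondrial share was 1.23 and 1.28% against 1.10 and 1.04%. A doublet score (Scrublet) marked 7 of 34 and 6 of 63 of them. The rates set for these libraries were 7.10 and 7.62%, by which 586 and 688 kept cells were marked. The part of doublets in genes of several lineages found in 1 cell was not tested.

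Nearly every WT host member carried genes of blood progenitors. Of the 97 members, 93 had UMIs of at least 3 of the 12 blood progenitor genes, with a median of 6 genes in a cell. The share with at least 3 of these genes was 67.4% in endothelium-like cells (median depth 13568 UMIs) and 3.07% in neural-like cells (14773 UMIs), in which such genes serve as background. In contrast, 4 of the 97 had at least 3 of the 18 macrophage genes. For the list for dendritic cells and MHC class II it was 2 of 97. Both shares were 0% in endothelium-like and in neural-like cells. Of all kept cells of WT host libraries 1 and 2, 1 and 4 had at least 3 macrophage genes, and 1 and 3 of these were members.

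The transcription factor Runx1, which starts definitive blood formation in haemogenic endothelium, had 154 and 165 CPM in the members of WT host libraries 1 and 2 and 24.8 and 18.8 CPM in the other cells. It was found in 86 of 97 members. Cd34, a surface sialomucin of progenitors and endothelium, had 144 and 251 CPM against 6.39 and 5.85 CPM, and was found in 69 members. Both genes were thus at several times the level of the other cells in each library. Myb, a transcription factor of definitive but not primitive blood, had 45.3 and 41.6 CPM against 4.31 and 3.60 CPM. Kit, the receptor for stem cell factor, had 41.2 and 27.7 CPM against 12.3 and 9.06 CPM, and Ikzf1, the lymphoid and myeloid factor Ikaros, had 22 and 30.5 CPM against 7.48 and 10.0 CPM. Itga2b, which encodes the integrin CD41, had 78.3 and 105 CPM against 10.6 and 11.4 CPM, in 72 members.

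In 11 of the 12 blood progenitor genes the log2 ratio of members to other cells was at least 1 in both WT host libraries. Over the 8687 genes with at least 10 UMIs in these members, this held for 7.75% of genes, and a log2 ratio of at most -1 in both libraries for 3.26%. The rule chose the cells through this same contrast, so nothing was read from these shares. The median log2 ratio of the blood progenitor list was 2.77 and 2.91 in libraries 1 and 2, beside 0.07 and 0.11 over all these genes.

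Endothelial genes were present in most members at levels between those of endothelium-like cells and of other cells. At least 3 of the 8 endothelium genes were found in 79 of 97 members, and 78 members had at least 3 genes of both the blood progenitor and the endothelium list. Cdh5, the VE-cadherin of endothelial junctions, had 102 and 122 CPM in the members of libraries 1 and 2, against 9.53 and 7.87 CPM in other cells and 221 CPM in the endothelium-like cells. Kdr, a receptor for VEGF, had 107 and 80.4 CPM against 34.3 and 27.4 in other cells and 268 in endothelium-like cells. Members thus had less of both than endothelium-like cells, which were however chosen by Cdh5 and other genes of the list. Egfl7, a secreted factor of endothelium and the most abundant of the list, had 199 and 217 CPM against 104 and 90.2 in other cells and 729 in endothelium-like cells. Esam and Pecam1, junction proteins, had 74.2 and 93.4, and 64.6 and 66.6 CPM, against 212 and 119 CPM in endothelium-like cells. Emcn, the sialomucin endomucin, was near the level of other cells in the members (5.49 and 4.62 CPM against 3.22 and 4.79 CPM) and had 91.8 CPM in endothelium-like cells.

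Genes of megakaryocytes and platelets made up a further layer, found in part of the members. At least 3 of the 10 megakaryocyte genes were detected in 44 of 97 members, 43 of which also had at least 3 blood progenitor genes. The same share was 2.06% in endothelium-like and 0.0479% in neural-like cells. Plek, the platelet protein pleckstrin, had 60.4 and 127 CPM in the members of libraries 1 and 2 and 0.881 and 2.10 CPM in other cells, and was found in 67 members. Pf4, the chemokine platelet factor 4, had 44.0 and 93.4 CPM against 1.10 and 2.42 CPM. Itgb3, the integrin partner of Itga2b, had 35.7 and 31.4 CPM against 1.59 and 2.93 CPM. Gp9, a subunit of the von Willebrand factor receptor, had 6.87 and 19.4 CPM against 0.437 and 0.891 CPM and was found in 17 members. Clec1b, the receptor CLEC-2, had 19.2 and 36.1 CPM against 3.24 and 2.66 CPM, but more in endothelium-like cells, at 65.2 CPM. Of the other genes of the list, Gp1bb had 0 UMIs in the members and Ppbp 1. At least 5 megakaryocyte genes were found in 9 members, which were all in WT host library 2. They also had 4 to 8 blood progenitor genes each.

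White blood cell genes shared by many leukocytes were uneven in the members. Arhgdib had 196 and 256 CPM in members against 11.2 and 11.3 CPM in other cells, and 92 of 97 members had it. Endothelium-like cells of these libraries also had it, at 96.1 and 114 CPM. Rac2, the haematopoietic Rac GTPase, had 46.7 and 88.7 CPM against 2.21 and 2.54 CPM. Ptprc, which encodes CD45, the surface phosphatase of nucleated blood cells, was found in only 7 of 97 members. It had 1.37 and 12 CPM in members, against 0.00766 CPM and 0 UMIs in other cells. At least 3 of the 8 genes of this list were found in 24.7% of members, 2.06% of endothelium-like and 0% of neural-like cells. Lcp1, an actin bundling protein, had 2.75 CPM in library 1, below the 6.79 CPM of other cells, and 26.8 CPM in library 2, above their 3.49 CPM.

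Genes of the ITAM signalling list were found in more members than those of the ITAM receptor list. At least 3 of 12 ITAM signalling genes were found in 70 of 97 members, against 6.19% of endothelium-like and 0.287% of neural-like cells, while Fgr and Card9 of this list had 0 UMIs. At least 3 of the 13 receptor genes were found in 1 of 97 members, and at least 1 in 7 of 34 and 37 of 63 members of WT host libraries 1 and 2. Ptpn6, the phosphatase SHP-1, had 54.9 and 103 CPM in members against 5.87 and 4.85 CPM in other cells. Lyn, a Src-family kinase that phosphorylates ITAMs, had 54.9 and 82.3 CPM against 5.72 and 5.43 CPM. Inpp5d, the lipid phosphatase SHIP-1, had 20.6 and 22.2 CPM against 0.544 and 0.612 CPM, and Lcp2, the adaptor SLP-76, had 19.2 and 25 CPM against 0.399 and 0.406 CPM. All 4 thus lay above the other cells in each library. Among the 13 receptors of the list, Fcgr3, the low-affinity Fc receptor CD16, was the single one with at least 10 UMIs in the members. It had 23.4 and 65.6 CPM against 2.04 and 1.02 CPM and was found in 38 of 97 members, while Fcgr2b, Trem1, Trem3, Clec4n, Siglech and Fcer1a had 0 UMIs.

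**Figure D4:**
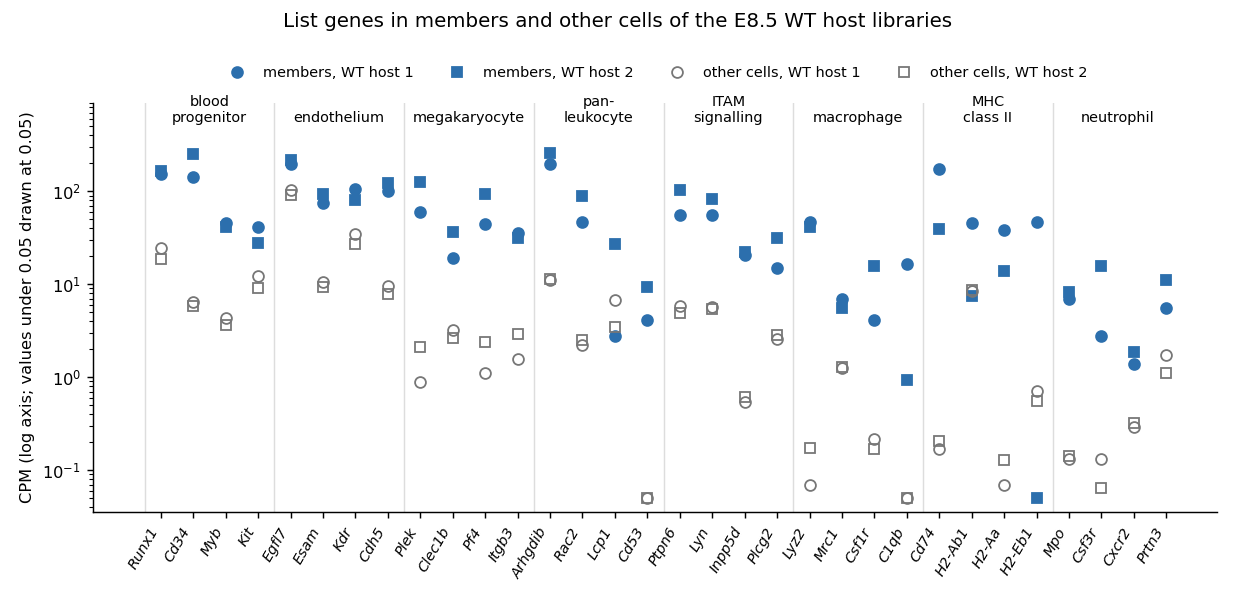
Level of up to 4 genes per list in the members (filled) and in the other cells (open) of E8.5 WT host libraries 1 (circles) and 2 (squares), in CPM on a log axis, with values under 0.05 CPM drawn at 0.05. The blood progenitor, megakaryocyte and ITAM signalling genes lie above the other cells in both libraries, whereas H2-Eb1 had 46.7 CPM in library 1 and 0 in library 2. No error is drawn, since each point is 1 library.

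Each mature myeloid gene was found in a minority of the members or in none, and those named here with UMIs lay above the other cells. Csf1r, the receptor for macrophage colony-stimulating factor, had 4.12 and 15.7 CPM in the members of WT host libraries 1 and 2 against 0.215 and 0.167 CPM in other cells, and was found in 12 of 97. Adgre1 (F4/80), C1qa and Timd4 had 0 UMIs in 97 members. C1qb had 12 and 1 UMIs and C1qc 6 and 2 UMIs in the members of libraries 1 and 2, of which 12 and 5 in library 1 were in a single shallow cell that is described next. No UMI was found of the neutrophil genes S100a8, S100a9, Elane, Ctsg, Camp, Ngp and Retnlg or of the 6 genes of mast cells and basophils. Mpo, the peroxidase of granulocyte precursors, had 6.87 and 8.32 CPM in 8 members against 0.130 and 0.143 CPM in other cells, and Csf3r, the receptor for granulocyte colony-stimulating factor, had 2.75 and 15.7 CPM in 12 members against 0.130 and 0.0636 CPM. Lyz2, the lysozyme of myeloid cells, was found more widely, with 46.7 and 41.6 CPM in 31 members against 0.0690 and 0.175 CPM in other cells.

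Part of the Lyz2 signal came from 2 cells. A cell of 3093 UMIs in WT host library 1 and a cell of 1941 UMIs in library 2 each carried 4 genes of the MHC class II list, with 11 and 7 macrophage genes. They held 17 of the 34 Lyz2 UMIs of library 1 and 21 of the 45 of library 2, and all 125 and 42 UMIs of Cd74, the invariant chain of MHC class II, and all 28 and 15 of H2-Aa. Without them, chosen after their values were seen, the summed level of the MHC class II list fell from 302 to 1.38 CPM in library 1 and from 61.0 to 3.70 CPM in library 2. The macrophage list went from 120 to 46.9 CPM and from 80.4 to 51.9 CPM, which was still above the 12.3 and 16.1 CPM of other cells, and the blood progenitor list had 741 and 934 CPM, close to the 740 and 934 CPM with them. Lyz2 had 23.5 and 22.2 CPM in the 33 and 62 members left, in 13 and 16 of them. Leaving out both cells gave a share of 0.543% ± 0.202 (SD, n = 2) in WT host libraries.

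**Figure D5:**
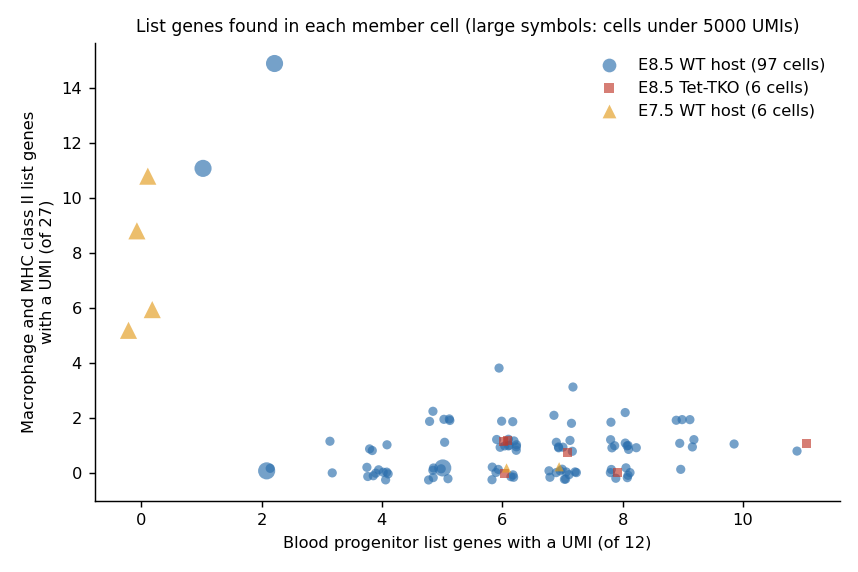
Number of blood progenitor list genes (of 12) and of macrophage and MHC class II list genes (of 27) with a UMI in each member, 1 symbol per cell, moved slightly at random to separate equal values. Large symbols are cells under 5000 UMIs. Most cells lie low and to the right, and the cells at the upper left, 2 from the E8.5 and 4 from the E7.5 WT host libraries, have at most 2 blood progenitor genes.

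Signalling molecules and further lineage genes added to this picture. Tgfb1, which encodes the cytokine TGF-beta 1, had 234 and 290 CPM in members against 27.4 and 24.1 CPM in other cells and 134 CPM in endothelium-like cells, and 93 of 97 members had it. Il1b and Ccl3, an inflammatory cytokine and a chemokine, were found in 2 and 3 members, and every UMI of Il1b was in the pair of shallow cells with MHC class II genes. Trbc2, a constant segment of the T cell receptor beta locus, separated the libraries, with 5.49 CPM in the members of library 1 and 105 CPM in those of library 2, in 2 and 17 cells. The T cell genes Cd3e, Cd3d, Cd3g and Trac had 0 UMIs in all members.

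Among transcription factors of the myeloid list, Cebpb had 41.2 and 90.6 CPM in members against 20.8 and 13.5 CPM in other cells. Fli1 and Zeb2, factors of endothelium and blood, had 110 and 80.4, and 97.5 and 104 CPM against 14.6 and 11.2, and 43.1 and 53.7 CPM. Cebpa and Irf8, which direct granulocyte and monocyte fates, were found in 2 and 8 members. Id2, an inhibitor of basic helix-loop-helix factors, went the other way, with 57.7 and 12.9 CPM in members against 311 and 249 CPM in other cells.

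Erythroid transcripts were lower in members than in other cells, which included many erythroid cells. In the members of libraries 1 and 2, Hbb-bh1, an embryonic beta-like globin, had 1312 and 3053 CPM against 6359 and 12716 CPM. Of the 9 erythroid genes, 7 had a log2 ratio of at most -1 in both libraries. Neural-like cells also had Hbb-bh1, with 839 and 1500 CPM in libraries 1 and 2. Whether this was free RNA, and the part of free RNA in the members' globin counts, was not tested. Gata1, the erythroid and megakaryocyte factor, was the single gene of the list above the other cells in both libraries, with 72.8 and 51.8 CPM against 32.8 and 40.9 CPM. The 8 cell cycle genes lay close to other cells, with a median log2 ratio of 0.21 and 0.20. Cdk1, the kinase that starts mitosis, had 293 and 364 CPM against 241 and 226 CPM, and Top2a, the topoisomerase of dividing cells, 309 and 333 CPM against 263 and 290 CPM. A list of RNA-binding genes of embryonic cells, which also held the chromatin protein gene Hmga2, had a median log2 ratio of -0.37 and -0.39. Lin28a, which blocks the maturation of let-7 miRNAs, was the single gene of the list with a log2 ratio of at most -1 in both libraries, with 49.5 and 31.4 CPM against 113 and 105 CPM. Its paralogue Lin28b lay on the other side, with 50.8 and 58.2 CPM against 31.5 and 39.2 CPM, and so did Hmga2, with 437 and 386 CPM against 330 and 311 CPM.

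Outside the lists, the 15 genes that led the members over other cells at E8.5 were, in order of the log2 ratio, Ptpn7, Ptgs1, Alox5ap, Gimap1, Lyve1, Bin2, Samsn1, Pla2g4a, Was, Fxyd5, Rab27b, Mfng, D030007L05Rik, Sla2 and Ctla2a. Pla2g4a, a phospholipase that releases arachidonic acid from membranes, had 31.6 and 86.9 CPM in the members of libraries 1 and 2 against 2.15 and 3.1 CPM in other cells. Ptgs1, the cyclooxygenase of platelets, had 52.2 and 69.3 CPM against 0.559 and 0.692 CPM. Alox5ap, which serves leukotriene synthesis, had 111 and 159 CPM against 1.89 and 1.69 CPM, and all 3 were lower in the endothelium-like cells, at 2.60, 5.54 and 18.9 CPM. Was, the Wiskott-Aldrich syndrome protein that drives actin branching in blood cells, was found in 72 members and had 78.3 and 115 CPM against 4.26 and 3.95 CPM. Lyve1, a hyaluronan receptor of lymphatic and yolk sac vessels, had 124 and 184 CPM in members and 195 CPM in endothelium-like cells, in 29 members only. Ctla2a had 319 and 308 CPM and was likewise at 351 CPM in endothelium-like cells.

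The 6 members of the Tet-TKO libraries were too few for a test of expression, which had been planned for libraries with at least 10 members. They had between 13304 and 68014 UMIs. Their median was 25644 UMIs, against 15917 UMIs in Tet-TKO cells other than members at this stage. Of the 6, 5 had exactly 3 rule genes, 1 had 4 and 0 had all 5, while 38 of 97 WT host members had 3. Their rule genes summed to 179 CPM, against 489 and 909 CPM in the members of WT host libraries 1 and 2. All 6 had at least 3 blood progenitor genes, between 6 and 11 in a cell, and at least 3 endothelium genes, 2 had at least 3 megakaryocyte genes, and 0 had at least 3 macrophage genes. Blood progenitor and endothelium genes were thus found together in every Tet-TKO member, but list genes are detected more easily in deeper cells. The part of depth in this was not tested. In the members of Tet-TKO libraries 1, 2 and 3, Runx1 had 0, 201 and 470 CPM, from 45 UMIs in 3 cells. Myb had 64.8, 170 and 132 CPM, and Kit 43.2, 15.5 and 265 CPM. Hmga2 had 583, 790 and 2823 CPM against 539, 517 and 528 CPM in cells that are not members, and Cebpb had 43.2, 201 and 1014 CPM against 19.2, 18.6 and 10.5 CPM. The single cell of library 3 thus had the most Runx1, Kit, Hmga2 and Cebpb, and held 192 of the 270 Hmga2 UMIs and 69 of the 84 Cebpb UMIs. Coro1a was found in 1 of 6 members. Rac2 was found in 0 of 6 and in 51 of 97 WT host members. Among other cells it was found in 0.332% in Tet-TKO libraries, and in 2.99 and 3.04% in WT host libraries 1 and 2. Hba-x was found in 0 of 6 and in 95 of 97, but this followed the libraries, since 96.1 and 99.2% of the other cells of the WT host libraries had it, and at most 29.1% of those of any Tet-TKO library. None of these differences was tested.

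Whether the 6 cells were of ESC origin was looked at through tdTomato and sex-linked genes. In Tet-TKO library 1, 1 of 2 members had a tdTomato UMI, in library 2 it was 1 of 3 and in library 3 it was 1 of 1. The share of other cells with a tdTomato UMI was 67.3%, 60.8% and 87.3% in these libraries. The summed tdTomato level of the members was 64.8, 77.4 and 58.8 CPM against 93.2, 97.9 and 127 CPM in other cells. The log2 ratio, with 0.5 added to the sums, averaged -0.48 ± 0.402 (SD, n = 3 libraries, lower in 3 of 3). The exact two-sided sign-flip permutation test gave p = 0.25, the smallest that 3 libraries allow. Xist, expressed from the inactive X of female cells, was found in 0 of the 6 members, and a Y-linked gene in 4 of 6. Among the other cells of Tet-TKO libraries 1 to 3, 1.13 to 4.22% had Xist and 8.99 to 24.4% a Y-linked gene. Of the 97 WT host members 53 had Xist, 36 had a Y-linked gene, and 1 had a tdTomato UMI, beside 52.8 and 54.9% of the other WT host cells with Xist and 30.4 and 32.8% with a Y-linked gene. The 3 Tet-TKO members with no tdTomato UMI also had no Xist UMI.

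At E7.5 the 6 members, all in the WT host library, were of 2 kinds. They were 6 of 7142 kept cells, a share of 0.0840% (95% exact binomial interval 0.0308 to 0.183%), and the Tet-TKO library had 0 of 5510, which allows up to 0.0544%. No test could be made on a single library of each genotype. A pair of deep cells (21618 and 19863 UMIs) had 6 and 7 blood progenitor genes and no macrophage or MHC class II gene. Together they had 10 UMIs of Runx1, 6 of Gata1 and 5 of Tal1, a factor needed for all blood. The other 4 cells had 1501 to 2287 UMIs, 2 to 6 macrophage genes and no blood progenitor gene, of which cells so shallow could show few UMIs. They held all 163 UMIs of Lyz2, all 167 of Cd74, found in 3 of the 4, and all 42 of Tyrobp. These 4 cells were shallow against the median of 14193 UMIs of other cells, 3 of them had Xist and none had a Y-linked or tdTomato UMI. None of them was deep enough to be thinned to 5000 UMIs, and after thinning there was 0 of 6662 in the WT host library.

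Just outside the rule at E7.5, 59 WT host cells had UMIs of exactly 2 of the 5 genes, and 41 of them had at least 3 blood progenitor genes. In the Tet-TKO library 5 cells had 2 of the genes, and 0 of these had at least 3 blood progenitor genes. Over all kept cells, Spi1 was found in 1.82% of WT host cells (95% exact binomial interval 1.52 to 2.16%) at a median depth near 14193 UMIs, and in 0.145% of Tet-TKO cells (0.0627 to 0.286%) at a median near 20744 UMIs. In epiblast-like cells of the WT host library, where it should be absent, the share was 0.593%. For Laptm5 the shares were 3.67% (3.24 to 4.13%) and 0.236% (0.126 to 0.403%), and the WT host share did not exceed the 4.21% of its own epiblast-like cells. In epiblast-like cells of the Tet-TKO library it was 0.264%. Whether these UMIs were free RNA was not tested. Coro1a was found in 7.32% (6.73 to 7.95%) and 9.07% (8.33 to 9.86%).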

How the data were processed

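Reads of 10x Genomics 3′ v3 libraries had been mapped by the authors to mm10 and counted with the GRCm38.92 annotation plus tdTomato. Cell Ranger is given as 5.0.0 in the methods and as 3.1.0 in the file headers. What was deposited are UMI counts of each gene in each barcode, without normalisation. Barcodes had at least 500 UMIs. The filters of the methods were applied: 1500 UMIs as a minimum, with maxima of 30% for mitochondrial and 35% for ribosomal UMIs, the latter by names starting with Rps or Rpl. Doublets were not removed. Levels are CPM, UMIs of a gene per 1000000 UMIs of a set of cells.

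Members, lists and tests were chosen with earlier results of these data known. Endothelium-like, neural-like (at least 3 of Sox2, Sox1, Sox3, Pax6, Zic1, Hes5, Otx2) and epiblast-like cells (at least 3 of Utf1, Slc7a3, Grb7, Sox2, Sox3) were comparison cells, with members left out. Named genes were drawn from up to 5 per list with the highest summed CPM over E8.5 members, and 15 leading genes with at least 100 UMIs. The further list genes were named after their values were seen. Class numbers were tested in edgeR 4.0.16 (R 4.3.3). On 100 simulated sets of 12 classes with 3 changed by a log2 fold of -4, 99% of changed classes were recovered, with 0.21 false calls per set. Rare classes such as the members were left unchanged in every set, so this recovery does not apply to a class that small. Permutation tests used scipy, and single-cell steps scanpy. Adjusted p-values are those of Benjamini and Hochberg.

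The alternatives were thinning to 5000 UMIs, at least 2 or 4 rule genes, at least 3000 UMIs, removal of Scrublet doublets, cells whose tdTomato matches their fraction, members without UMIs of Pf4, Gp9, Ppbp, Itga2b and Gp1bb, tdTomato against endothelium-like cells, like libraries summed, leaving out each library in turn and a replicate block. Other totals and members, a ribosomal pattern without pseudogenes and the whole edgeR test of class numbers were added after seeing the data.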

Additional observations from a re-analysis of the deposited data

How the results depend on the processing

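The lower share of members in Tet-TKO libraries kept its direction under all 19 alternatives, as did the lower tdTomato level under 7 and the edgeR log2 fold change of the number of members under 10. For the share, the exact p was never under 0.133, which says nothing about stability. The tdTomato direction rested on the same few UMIs of the members in every alternative. Leaving out each library gave differences between -0.671 and -0.386 percentage points for the share, -0.62 and -0.25 for the log2 ratio of tdTomato, and -4.46 and -3.70 for the edgeR log2 fold change, with adjusted p from 0.00939 to 0.0419. The share difference was -0.0660 percentage points for members without a UMI of Pf4, Gp9, Ppbp, Itga2b and Gp1bb (1 Tet-TKO and 12 WT host cells) and -0.211 in thinned cells. With at least 2 of the 5 genes it was -0.975, and the ratio of the mean shares fell from 21.5 to 6.97. The edgeR call was lost when like libraries were summed (-4.14, adjusted p = 0.0585), a fit with fewer samples. The tdTomato ratio was -1.07 against endothelium-like cells, from 3 libraries, -1.34 without Scrublet doublets, which removed the tdTomato-positive member of library 2, and -1.38 and -0.94 in thinned cells and with 4 genes, each from a single library. Labels of both genotypes carry replicate numbers 1 and 2 but do not say that they pair the libraries. With the replicate block the share difference was -0.524 percentage points and the edgeR log2 fold change -4.16 (adjusted p = 0.00726). Libraries 1 and 2 alone without the block gave -4.14 (adjusted p = 0.00262). The planned tests of expression in members and in endothelium-like cells of the same libraries, their difference and the alternatives of these were not run, since the Tet-TKO libraries held 2, 3, 1 and 0 members.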

Other observations

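Of the 97 WT host members of E8.5, 46 had Xist and no Y-linked UMI, 29 had a Y-linked and no Xist UMI, and 7 had both. In WT host library 1 these were 18, 4 and 5 of 34 members, and in library 2 they were 28, 25 and 2 of 63.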
